A study of Homo sapiens with 4 samples.

Results

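The 37 genes described here act in homologous recombination, in the Fanconi anaemia pathway and in the checkpoint that accompanies both. They were picked by gene symbol, and each symbol matched exactly 1 row, so 37 of the 57815 genes in the deposited table were members. Expression was measured by RNA-Seq in MDA-MB-231, a breast cancer line of the triple-negative class, and in LM2-4175. LM2-4175 is a line derived from MDA-MB-231 with high metastasis to the lung, and the deposited table names it LM2. Libraries were prepared from extracted total RNA. Both cell lines were untreated, grown in the same medium, and sequenced as 2 libraries each, 4 in all. The table holds 1 FPKM (fragments counted per kilobase of a transcript's length and relative to all mapped fragments) for every gene in each line, the libraries being merged, with a lower and an upper bound. Accordingly no replicate check and no significance test could be made here for any difference, and each cell line stood for 1 sample.

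Homologous recombination repairs a broken chromosome by copying the intact sister. The MRN complex and RBBP8 trim the broken ends, BRCA1, PALB2 and BRCA2 load the recombinase on the exposed single strand, and helicases such as BLM take the joined molecules apart. When both strands are crosslinked, the Fanconi core complex attaches ubiquitin to FANCD2 and FANCI, which opens the way for the crosslink to be cut out and the break to be repaired by recombination. Breast cancers that have lost BRCA1 or BRCA2 depend on other repair and are sensitive to inhibitors of PARP1.

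BLM, which encodes a RecQ helicase, was the 1 gene of the 37 whose expression differed clearly between the cell lines. MDA-MB-231 had 6.0 FPKM of it (bounds 4.25–7.75), and LM2-4175 had 18.3 FPKM (bounds 13.2–23.3). The ratio of FPKM was 3.05, and the bounds allowed a ratio from 1.71 to 5.49. No member was clearly lower in LM2-4175. A gene was called where the ratio of FPKM + 1 was at least 1.5-fold in either direction and the bounds of the cell lines did not overlap. The log2 ratios given are of FPKM + 1, LM2-4175 over MDA-MB-231, on which the change of a low gene comes out too small.

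On this rule 1 of 37 members (2.70%) was called, against 9.27% of the 13911 genes tested (4.67% higher and 4.61% lower in LM2-4175). All 37 members passed the filter, which asked for a mean of at least 0.5 FPKM and a quantification marked OK in each cell line. Among the 10016 genes whose mean FPKM lay between those of the lowest and the highest member, 8.53% were called. Without the bounds, 4 members were at least 1.5-fold higher on the scale of FPKM + 1 and 0 were at least 1.5-fold lower, against 10.3% and 11.8% of the genes tested. On the FPKM themselves, with nothing added, 4 were at least 1.5-fold higher and 2 at least 1.5-fold lower, FANCE (1.52-fold) and FANCB (1.51-fold), against 14.2% and 15.5% of the genes tested. Bounds were apart for 9.39% of the genes tested and for BLM alone among the members. By any amount, 17 members (45.9%) were lower in LM2-4175, against 54.5% of the genes tested. The median log2 ratio was 0.05 over the members and -0.04 over the genes tested. By FPKM + 1, 33 members (89.2%) differed by less than 1.5-fold, against 77.9% of the genes tested, and by FPKM 31 did, against 70.3%.

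The sequences before the gene starts of BLM, the called gene, of BRIP1, whose bounds came nearest to separation among the higher genes that were not called, and of FANCE, the member furthest below 0, are shown because these genes carry the comparison. They are the 250 bases before the RefSeq start on GRCh38.p14, at chr15:90717096-90717345 (plus strand), chr17:61863529-61863778 (minus strand) and chr6:35452088-35452337 (plus strand), written 5′ to 3′ on the strand of the gene. Capitals mark letters that match, on either strand, 1 of 5 motifs searched. The forms searched for E2F were TTCCCGC, the related form TTGGCGC, a further form TTCGCGC, and lastly the form TTGCCGC. The CCAAT box was searched as CCAAT, the GC box under the letters GGGCGG, the ETS motif under the letters CCGGAAG and the cell cycle element CHR under the letters TTTGAA.
BLM: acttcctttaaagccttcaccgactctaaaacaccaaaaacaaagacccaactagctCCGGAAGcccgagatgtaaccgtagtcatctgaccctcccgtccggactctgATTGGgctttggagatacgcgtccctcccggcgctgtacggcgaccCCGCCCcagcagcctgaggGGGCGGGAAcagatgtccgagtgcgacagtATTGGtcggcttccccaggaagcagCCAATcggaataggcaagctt
BRIP1: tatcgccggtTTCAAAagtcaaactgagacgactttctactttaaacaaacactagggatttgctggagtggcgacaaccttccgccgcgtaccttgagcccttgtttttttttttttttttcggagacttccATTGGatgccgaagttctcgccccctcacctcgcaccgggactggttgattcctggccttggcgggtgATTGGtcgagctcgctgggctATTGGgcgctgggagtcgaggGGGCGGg
FANCE: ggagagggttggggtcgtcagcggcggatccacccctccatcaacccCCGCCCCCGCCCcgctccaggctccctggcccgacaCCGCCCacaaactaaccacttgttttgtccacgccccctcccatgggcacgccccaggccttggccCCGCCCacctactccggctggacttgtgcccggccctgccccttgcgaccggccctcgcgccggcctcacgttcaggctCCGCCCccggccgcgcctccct

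BLM held 1 E2F match, which overlapped 1 of its 2 GC box matches, with 3 CCAAT matches and 1 ETS match. The 250 bases before BRIP1 held 3 CCAAT matches, 1 GC box match and 1 CHR match, and no match to the E2F letters. FANCE had 5 GC box matches and none of the other 4 motifs, in a window with a GC content of 73.6%, against 57.6% for BLM and 54.0% for BRIP1. RefSeq starts were matched for 32 members, some with several starts, so that 43 windows were searched. The E2F letters were in 12 of these windows (27.9%) and in 10.9% of 35116 windows of the same length before all RefSeq starts in the table. ETS letters were in 11 (25.6%, against 8.52%), CCAAT in 19 (44.2%, against 32.0%), the GC box in 25 (58.1%, against 42.6%) and CHR in 3 (6.98%, against 13.3%). A match is only a description of the letters, and windows of the same gene overlap.

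**Figure D1:**
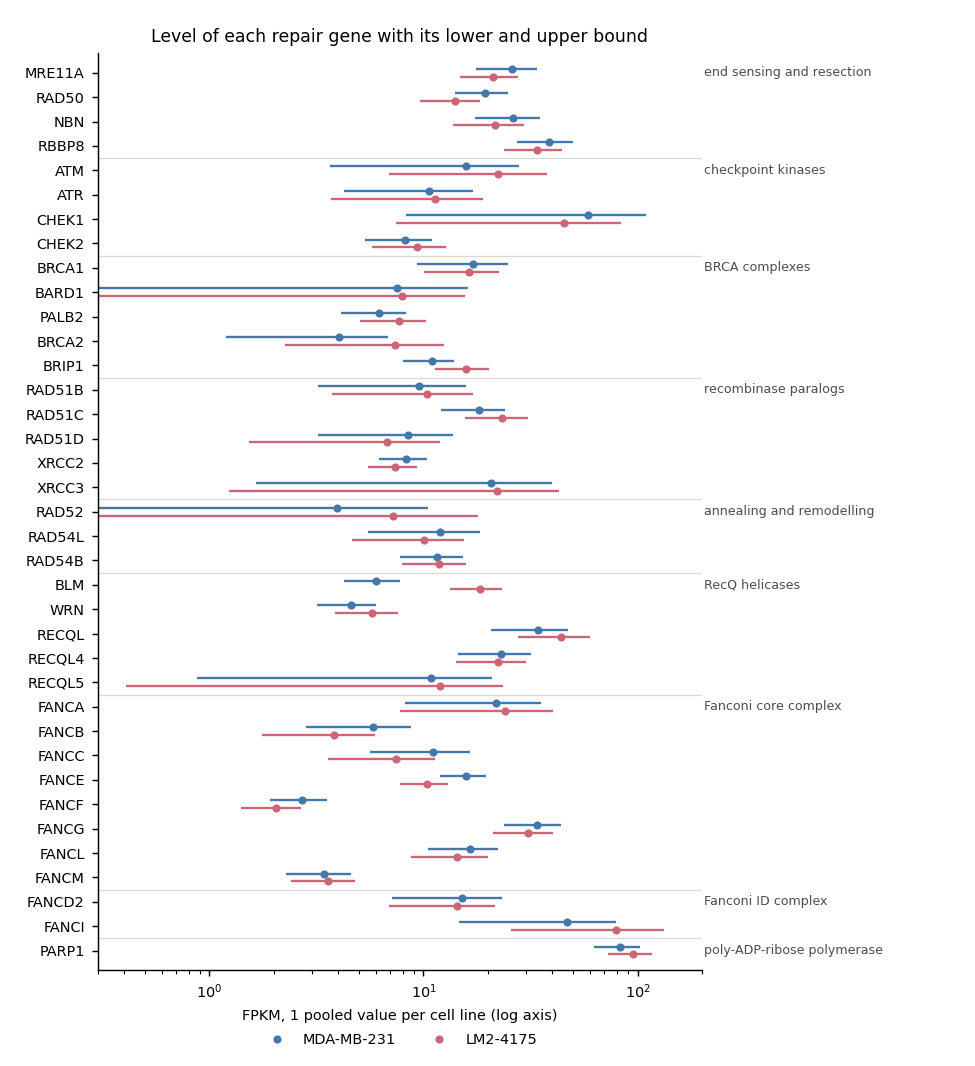
FPKM of each of the 37 genes in MDA-MB-231 (blue) and LM2-4175 (red) on a log axis, with lines from the lower to the upper bound, cut at the left edge where the bound is under 0.3 FPKM. The lines of BLM, 4.25 to 7.75 and 13.2 to 23.3 FPKM, are the only pair that do not overlap.

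The plot of levels shows that the members spanned a wide range and kept a similar order. Between the cell lines, log2 of FPKM + 1 had a Pearson's r of 0.925 over the members and 0.944 over the genes tested. PARP1 was highest in both cell lines and FANCF lowest. The median member stood at 11.9 FPKM in MDA-MB-231 and 14.0 FPKM in LM2-4175, against 11.9 and 11.6 FPKM over the genes tested. By rank of FPKM among the 37 members, 26 moved by at most 3 places. BLM moved from rank 31 to rank 14, ATM from 16 to 9, and FANCC from 21 to 29. RAD50 moved from 12 to 19, FANCE from 17 to 24, and RAD51D from 26 to 33. CHEK1, FANCI, RBBP8 and RECQL held ranks 2 to 5 in both cell lines, and within each line their bounds overlapped one another.

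The end sensing and resection genes all had lower values in LM2-4175, 4 of 4, and none was called. Over all genes tested, 54.5% were lower by any amount and 9.27% were called. These shares apply beside the counts of each role group below, and such small groups were not tested. MRE11A, the nuclease of the MRN complex, had 25.9 FPKM (bounds 17.7–34.1) in MDA-MB-231 and 21.2 FPKM (14.8–27.6) in LM2-4175. RAD50, the ATPase that tethers the ends, had 19.4 FPKM (14.0–24.9) and 14.0 FPKM (9.67–18.3), the largest difference of the 4 with a log2 ratio of -0.45. NBN, which brings ATM to the break, had 26.2 FPKM (17.4–35.1) and 21.6 FPKM (13.8–29.4). By FPKM these 3 subunits thus stood in the same order in both cell lines, NBN and MRE11A above RAD50, with overlapping bounds. RBBP8, which starts resection together with the MRN complex, had 38.5 FPKM (27.4–49.7) and 34.1 FPKM (23.8–44.3). The log2 ratios of the 4 ran from -0.45 to -0.17 with a median of -0.27. In GENCODE v44, 76.9% of the exon bases of RAD50 are shared with another gene model on the same strand and an antisense gene. The FPKM were quantified on GENCODE v19, and the effect of this overlap on them was not tested. The upper bounds of RAD50 lay 28.1% (MDA-MB-231) and 31.0% (LM2-4175) above its FPKM.

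Among the checkpoint kinases the values were close or the bounds very wide. ATM, the kinase that answers to double-strand breaks, had 15.8 FPKM (3.64–27.9) and 22.4 FPKM (6.92–37.9), a log2 ratio of 0.48. ATR, which answers to single-stranded DNA, had 10.6 FPKM (4.24–17.1) and 11.4 FPKM (3.71–19). CHEK1, its effector kinase, was the second highest member in MDA-MB-231 with 58.8 FPKM (8.30–109) and had 45.5 FPKM (7.45–83.6) in LM2-4175. The bounds of CHEK1 allowed a ratio from 0.0682 to 10.1, so the data say little about its direction. CHEK2, the effector of ATM, had narrower bounds, with 8.17 FPKM (5.32–11) and 9.28 FPKM (5.78–12.8).

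Of the 5 BRCA complex genes, 4 had higher values in LM2-4175 (all 5 on the TPM scale, where BRCA1 moves above 0), and none was called. BRCA1 was at almost the same level in both, 17 FPKM (9.29–24.8) in MDA-MB-231 and 16.3 FPKM (10.1–22.5) in LM2-4175. Its partner BARD1, with which it forms a ubiquitin ligase, had 7.54 FPKM (0–16.1) and 7.90 FPKM (0.229–15.6), bounds too wide to compare. PALB2, which links BRCA1 to BRCA2, had 6.21 FPKM (4.12–8.30) and 7.65 FPKM (5.06–10.2). BRCA2, which loads the recombinase, differed more, but its bounds overlapped. It had 4.01 FPKM (1.19–6.83) in MDA-MB-231 and 7.37 FPKM (2.25–12.5) in LM2-4175, a log2 ratio of 0.74. BRIP1, a helicase that binds BRCA1, had 11 FPKM (7.99–14.0) and 15.8 FPKM (11.3–20.3), a log2 ratio of 0.49. Of the members with overlapping bounds BRIP1 came nearest to separation in the upward direction, since its bounds allowed no ratio below 0.813.

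The paralogs of the recombinase, which help to build and stabilise its filament, had 3 higher and 2 lower values in LM2-4175 and no call. RAD51C had 18.1 FPKM (12.1–24.1) in MDA-MB-231 and 23.2 FPKM (15.6–30.7) in LM2-4175, which at 0.34 is the highest log2 ratio of the 5 and was not called. RAD51D was at the other end with 8.48 FPKM (3.21–13.8) and 6.73 FPKM (1.53–11.9), a log2 ratio of -0.30. RAD51B, with 9.51 FPKM (3.23–15.8) and 10.4 FPKM (3.74–17.1), lay between. XRCC2, which joins RAD51B, RAD51C and RAD51D in 1 complex, was among the best measured members. Its levels were 8.29 FPKM (6.18–10.4) and 7.38 FPKM (5.49–9.28), and the bounds kept its ratio between 0.528 and 1.5. XRCC3, the partner of RAD51C in the other complex, had 20.7 FPKM (1.66–39.8) and 22.0 FPKM (1.23–42.7). KLC1 on the opposite strand overlaps 76.7% of the exon bases of XRCC3 in GENCODE v44, and the library kit does not mark strand. How far this overlap affected the FPKM, quantified on GENCODE v19, was not tested.

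RAD52, RAD54L and RAD54B, which anneal strands or move the recombinase along DNA, gave no call either. RAD52 had 3.95 FPKM in MDA-MB-231 and 7.24 FPKM in LM2-4175, a log2 ratio of 0.74. Its lower bound was 0 in both cell lines and its upper bounds were 10.5 and 17.9 FPKM, so no ratio could have separated them. RAD54L had 11.9 FPKM (5.50–18.4) and 10.0 FPKM (4.63–15.4). RAD54B had 11.6 FPKM (7.79–15.3) and 11.9 FPKM (7.89–15.8), a log2 ratio of 0.04.

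Within the RecQ helicases, which unwind recombination and replication intermediates, BLM was the 1 of 5 called. WRN, the Werner syndrome helicase, had 4.60 FPKM (3.18–6.01) in MDA-MB-231 and 5.73 FPKM (3.85–7.62) in LM2-4175. It was thus at a level like that of BLM in MDA-MB-231, and in LM2-4175 its upper bound lay below the lower bound of BLM. RECQL, the most abundant of the family, had 34.2 FPKM (20.8–47.5) and 43.7 FPKM (27.7–59.8), a log2 ratio of 0.35. Exons of PYROXD1 on the opposite strand overlap 41.5% of its exon bases in GENCODE v44, with an effect on the FPKM that was not tested. RECQL4, the helicase tied to the start of replication, had 23.1 FPKM (14.4–31.7) and 22.2 FPKM (14.1–30.2). RECQL5 had 10.8 FPKM (0.873–20.8) and 12 FPKM (0.406–23.6), with bounds that allowed a ratio from 0.0195 to 27. The log2 ratios of the family ran from -0.05 for RECQL4 to 1.46 for BLM, and the value of BLM lay above 97.9% of all genes tested.

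The Fanconi core complex, the ubiquitin ligase of the pathway, had 6 of 8 members with lower values in LM2-4175, against 54.5% of all genes tested. Its median log2 ratio was -0.24, with 0 calls, against 9.27% of all genes tested. FANCE, which bridges the core complex to FANCD2, had 15.8 FPKM (11.9–19.7) in MDA-MB-231 and 10.4 FPKM (7.73–13.1) in LM2-4175. This log2 ratio of -0.56 was the lowest of all members, and the bounds overlapped only between 11.9 and 13.1 FPKM. FANCC, the partner of FANCE and FANCF, had 11.1 FPKM (5.65–16.5) and 7.43 FPKM (3.6–11.3). FANCB, a scaffold of the catalytic module, had 5.79 FPKM (2.84–8.74) and 3.83 FPKM (1.76–5.91). FANCF was the lowest member in both, with 2.72 FPKM (1.91–3.53) and 2.04 FPKM (1.40–2.67). All 3 members of the module of FANCC, FANCE and FANCF thus had lower values in LM2-4175, by log2 ratios of -0.52, -0.56 and -0.29. The bounds of each overlapped between the cell lines. FANCG had 33.9 FPKM (23.7–44) and 30.8 FPKM (21.2–40.4), and FANCL, the catalytic subunit, had 16.4 FPKM (10.5–22.4) and 14.3 FPKM (8.73–19.9). The 2 members above 0 were FANCA, with 21.9 FPKM (8.19–35.5) and 24.0 FPKM (7.75–40.3), and FANCM, the translocase that anchors the complex on DNA, with 3.43 FPKM (2.27–4.58) and 3.59 FPKM (2.40–4.78).

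FANCD2 and FANCI, the clamp that the core complex ubiquitinates, had different log2 ratios, a difference that was not tested. FANCD2 had 15.2 FPKM (7.12–23.2) in MDA-MB-231 and 14.3 FPKM (6.93–21.6) in LM2-4175, a log2 ratio of -0.08. FANCI had 47.0 FPKM (14.7–79.2) and 79.4 FPKM (25.5–133), a log2 ratio of 0.74. The ratio of FANCI was 1.69, with bounds that overlapped from 25.5 to 79.2 FPKM, and it was not called. PARP1, the sensor of single-strand breaks, had 82.9 FPKM (62.9–103) and 95.0 FPKM (72.9–117) and lay above 90.6% and 92.8% of the genes tested.

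**Figure D2:**
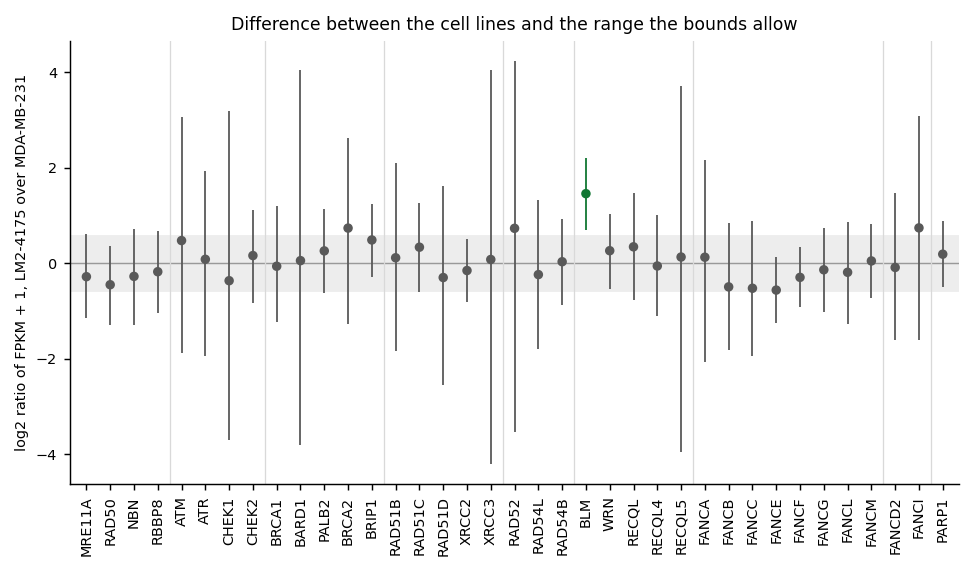
Log2 ratio of FPKM + 1, LM2-4175 over MDA-MB-231, for each gene (points), with lines from the lowest to the highest ratio that the bounds allow and a grey band for less than 1.5-fold either way. Only the line of BLM (green) stays clear of 0, and 33 of the 37 points lie inside the band.

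How large a difference had to be before the bounds separated was unequal, as the plot of differences shows. The median distance from FPKM to upper bound, relative to the FPKM, came to 37.3% (MDA-MB-231) and 37.8% (LM2-4175) for the members, near the 38.6% and 38.1% of all genes tested. If each gene kept these relative widths, the members needed a median of 2.18-fold more in LM2-4175 for the bounds to separate. This median leaves out RAD52. The best measured, PARP1, needed 1.62-fold. For 16 members more than 3-fold was needed, among them CHEK1 (11.4-fold), XRCC3 (34.2-fold), RECQL5 (56.7-fold), BARD1 (73.9-fold) and RAD52, for which no ratio sufficed. For these genes a difference of the size seen in BLM was not detectable. The 8 members with over 10% of their exon bases shared with another gene had a median distance of 59.5% between FPKM and upper bound, against 36.3% for the other 29. They are RAD50, CHEK1, XRCC3, RAD54L, RAD54B, RECQL, RECQL5 and FANCA. Both groups were mixed. In MDA-MB-231 the distance ran from 28.1% (RAD50) to 92.0% (XRCC3) in the 8. In the other 29 it ran from 24.1% (PARP1) to 166% (RAD52). The 14 members whose deposited locus exceeds the gene by over 25% also had a larger median distance, 45.9% against 33.8%. The part of either trait in the width of the bounds was not tested.

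BLM and FANCI lie near each other on chromosome 15, and the genes around them were also higher in LM2-4175. On GRCh37, FANCI spans 89787176 to 89860492 and BLM 91260577 to 91359396, both on the plus strand, 1.40 Mb apart. All 41 other genes tested within 3 Mb of BLM were higher in LM2-4175, with a median log2 ratio of 0.84, 13 called higher and 0 called lower. Around FANCI all 38 were higher, with a median of 0.90 and 14 called. These windows overlap and share genes, so they are not separate observations. BLM exceeded the median of its neighbours by 0.62 on the log2 scale, whereas FANCI lay 0.15 below that of its own. Among protein-coding genes of the chromosome more than 20 Mb before BLM, 114 of 238 were higher, with a median of -0.02. From 20 to 3 Mb before it 81 of 92 were higher (median 0.50), and from 3 Mb after it on 18 of 18 (median 1.13).

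**Figure D3:**
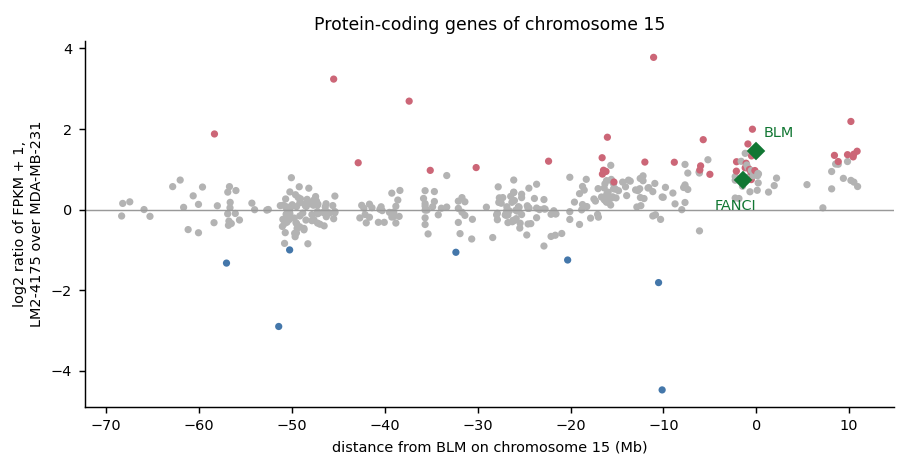
Log2 ratio of FPKM + 1, LM2-4175 over MDA-MB-231, of the protein-coding genes tested on chromosome 15 against their distance from BLM in Mb, with genes called higher in red, called lower in blue, others in grey, and BLM and FANCI as green diamonds. All 36 other genes within 3 Mb lie above 0, and BLM is above most of them.

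Around FANCB on the X chromosome the neighbouring genes were lower. FANCB spans 14708510 to 14891377 on the minus strand of GRCh37, and all 23 other genes tested within 3 Mb were lower in LM2-4175, with a median log2 ratio of -0.99 and 12 called lower. FANCB itself had a log2 ratio of -0.49, 0.50 above the median of its neighbours. For the remaining members the median of the neighbours lay between -0.32 and 0.34. FANCE on chromosome 6 (35420115 to 35434881, plus strand) had 49 neighbours with a median of -0.29, of which 42 were lower and 8 called lower. BRCA2, RAD52 and BRIP1 had neighbours with medians of 0.17, -0.03 and 0.06, well below their own log2 ratios of 0.74, 0.74 and 0.49. Over the 37 members, the log2 ratio and the median of the neighbours had a Pearson's r of 0.653, and over the 35 without BLM and FANCI it was 0.422. FANCB, with the lowest neighbour median (-0.99), is among these 35, and r without it was not calculated. Both values of r are descriptions across genes, some of which share neighbours. The part that position plays in the members' values was not tested.

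**Figure D4:**
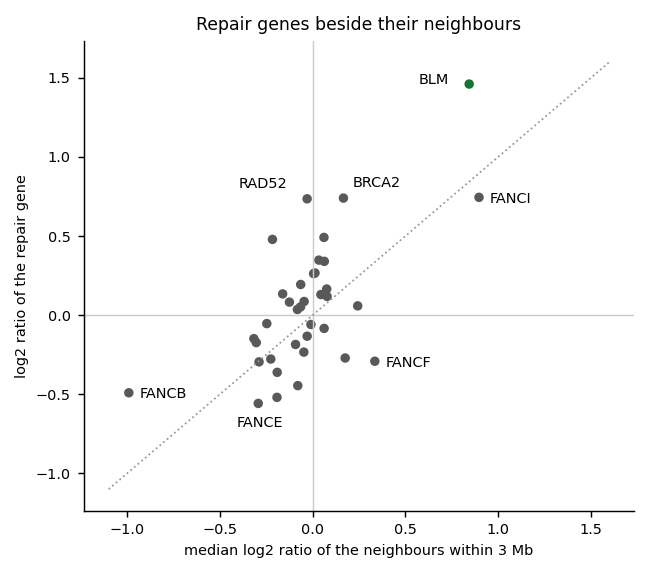
Log2 ratio of FPKM + 1 of each of the 37 genes (vertical) against the median of the other genes tested within 3 Mb (horizontal), with a dotted line where both are equal and BLM in green. BLM and FANCI lie far to the right with neighbour medians of 0.84 and 0.90, and FANCB far to the left at -0.99.

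A wider list of 41 other genes of recombination and the Fanconi pathway held no call, against 9.27% of all genes tested. In LM2-4175 19 were higher and 22 lower (53.7%, against 54.5% of all genes tested), with log2 ratios from -0.46 to 0.37. The largest were in SHFM1, the small partner of BRCA2 (235 and 171 FPKM), MAD2L2, a subunit of the shieldin complex (50.2 and 36.5 FPKM), and RAD51AP1, which stimulates strand invasion (34.6 and 26.1 FPKM). Of 19 checkpoint mediators and break chromatin genes tested, 8 were higher and 11 lower (57.9%), and 1 was called (5.26%). This was H2AFX, the histone variant phosphorylated at breaks, which fell from 111 FPKM (84.8–136) to 45.0 FPKM (34.5–55.5), a log2 ratio of -1.28. HUS1, of the checkpoint clamp, and RNF8, the ubiquitin ligase at breaks, had log2 ratios of -0.75 and -0.73 with overlapping bounds.

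Many of these repair genes are transcribed with the cell cycle, and genes of S phase and mitosis are therefore given beside them. Of 18 such genes, 16 (88.9%) were lower in LM2-4175, against 54.5% of all genes tested. Their median log2 ratio was -0.30, and 0 were called, against 9.27% of all genes tested. MCM7, a subunit of the replicative helicase, had 210 FPKM (140–280) in MDA-MB-231 and 128 FPKM (85.4–171) in LM2-4175. CCNA2, the cyclin of S phase, had 93.2 and 58.6 FPKM, and MCM6 had 49.3 and 32.2 FPKM. The 37 repair genes had a median of 0.05, with 17 below 0, on the same scale. The part of the cell cycle in the repair genes was not tested, and whether the lists differ beyond the spread between libraries was not tested.

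The cell type was checked by marker genes. These lists do not show whether the labels of MDA-MB-231 and its derivative LM2-4175 are the right way round. VIM, CD44 and AXL, which mark mesenchymal breast lines, stood at 322 to 1768 FPKM in both cell lines. Of the luminal list, ESR1 and PGR were at most 0.0331 FPKM, while ERBB2 had 35.0 and 22.8 FPKM and GATA3 3.1 and 2.42 FPKM in MDA-MB-231 and LM2-4175. Of the leukocyte genes, CD3E was listed at 0 in both, PTPRC and CD79A were at most 0.258 FPKM, and CD14 had 1.17 and 1.75 FPKM. Epithelial KRT8 fell from 626 to 180 FPKM and EPCAM from 12.3 to 4.93 FPKM, both called, and CDH1 had 0.851 and 0.366 FPKM. Of the 4 fibroblast genes, COL3A1 and DCN were at most 0.137 FPKM, while COL1A1 rose from 3.16 to 31.0 FPKM and PDGFRB fell from 9.44 to 1.91 FPKM, both called. The part of such differences in cell state in the repair genes was not tested. The table gives no read counts, and the precision of each FPKM was read from its bounds.

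**Figure D5:**
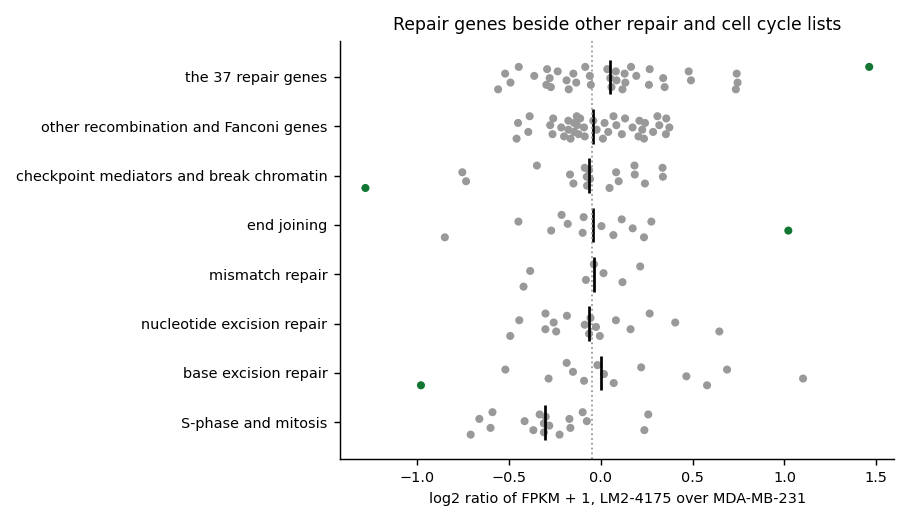
Log2 ratio of FPKM + 1, LM2-4175 over MDA-MB-231, of the genes of 8 lists (points, green where called), with a black bar at the median of each list and a dotted line at the median of all genes tested (-0.04). The S phase and mitosis list has its median at -0.30, and the 37 repair genes have theirs at 0.05.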

How the data were processed

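RNA-Seq values were taken as deposited, for MDA-MB-231 and for its derivative LM2-4175. The authors prepared libraries with a TruSeq V2 kit, which does not mark strand, aligned paired reads to hg19 with TopHat2 at default parameters, quantified GENCODE v19 genes with Cufflinks and compared the cell lines with Cuffdiff, and the deposited unit is FPKM, 1 pooled value per gene and cell line with a lower and an upper bound. What the bounds cover and how libraries were scaled are not given in the sources used here. With 2 libraries merged per line in the deposited values, no p-value was calculated here. The authors did test differences with Cuffdiff, and the outcome of that test is not reported here.

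The genes tested had a quantification marked OK in both and averaged at least 0.5 FPKM. A gene was called at a 1.5-fold ratio of FPKM + 1 (pseudocount 1) with bounds apart. Loci of the table gave the neighbours, and gene positions and exon overlaps came from GENCODE v44 on GRCh37, the build of the table, matched by Ensembl ID for 37 members. Sequences came from RefSeq. The members and gene lists were chosen with earlier results of these data known. All members are named, and of each other list the genes called or up to 3 with the largest differences. The values of some genes of these lists are not reported here. Alternatives were call rules, pseudocounts, filters, scalings and windows. Python 3.11.15, NumPy 2.4.6, pandas 2.3.3 and Matplotlib 3.10.9 were used.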

Additional observations from a re-analysis of the deposited data

How the results depend on the processing

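Under the 10 alternative call rules, pseudocounts, filters and scalings, BLM was called in each and no member was called lower in any. The ratio alone with no pseudocount, added after seeing the data, gave 4 members higher and 2 lower, FANCE and FANCB. With the 1.5-fold ratio alone, without the bounds, the count of members called higher was 4, namely BLM, BRCA2, FANCI and RAD52. The same rule gave 3 of 19 checkpoint mediators tested, 2 of 14 end joining and 1 of 17 nucleotide excision repair genes. It gave 3 of 14 base excision repair and 4 of 18 S phase and mitosis genes. Over all genes tested, it gave 10.3% higher and 11.8% lower. At 2-fold, base excision repair held 0 called genes. The median of the members ran from 0.04 to 0.13. Scaled as TPM, BRCA1 and RECQL4 turned from below to above 0, all genes tested had a median of 0.03 and 57.3% of the genes called were higher, against 50.3%. Members with little exon overlap, and members without BLM and FANCI, were tried after seeing the data. The median of the latter was 0.04. Within 1 Mb, FANCF had a single neighbour, at -0.43, against a median of 0.34 within 3 Mb. Over all genes tested, 649 were called higher and 641 lower, against 1434 and 1640 with the ratio alone, 450 and 403 at 2-fold, and 321 and 443 with a mean of at least 5 FPKM, a filter that leaves 9519 genes and 34 members. The precision is limited by the bounds, and what they cover is not given. If each bound is assumed to lie 2 standard errors from the FPKM, the median standard error of a member's log2 ratio is 0.36. No paired analysis was possible because the table holds no value per library, and leaving out replicates was not run for the same reason.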

Other observations

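Genes of other repair pathways were compared in the same way. Of 52 genes tested in end joining, mismatch repair, nucleotide excision repair and base excision repair, 22 were higher and 30 lower in LM2-4175, and 2 were called (3.85%, against 9.27% of all genes tested). The share lower by any amount was 57.7%, against 54.5% of all genes tested. Without the bounds 4 were at least 1.5-fold higher and 2 at least 1.5-fold lower by FPKM + 1. Over all genes tested these shares were 10.3% and 11.8%. LIG4, the ligase that closes breaks in end joining, rose from 4.03 FPKM (bounds 2.93–5.14) to 9.22 FPKM (6.97–11.5), a log2 ratio of 1.02. UNG, the glycosylase that removes uracil from DNA, fell from 62.5 FPKM (48.0–77.1) to 31.3 FPKM (23.8–38.7), a log2 ratio of -0.98. Both keep the bounds of the cell lines apart.

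In end joining, LIG3 had 11.8 and 6.10 FPKM with overlapping bounds. In base excision repair, NEIL1, a glycosylase gene on chromosome 15, had 1.58 FPKM (0.179–2.98) and 4.53 FPKM (2.40–6.66). Among the mismatch repair genes MSH6, a subunit of a sensor of mispaired bases, had a log2 ratio of -0.42 with overlapping bounds. The largest difference in nucleotide excision repair was in the damage sensor XPC, with 6.65 and 11 FPKM and overlapping bounds.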
